A study of Homo sapiens with 6 samples.

Results

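The genes described here encode the cytoplasmic translation initiation factors (eIF) and elongation factors (eEF) of human cells, together with the eIF4E-binding proteins and the enzymes that modify the elongation factors. Members were the protein-coding genes of the table whose symbol begins with EIF followed by a digit from 1 to 6, or with EEF followed by 1 or 2, leaving out the eIF2 kinases, whose symbols begin with EIF2AK. This name rule, which uses no measured value, took 67 of the 58735 genes. RNA was sequenced from 6 libraries labelled Hep3B, a human liver cancer line, of which 3 carried a control short hairpin RNA (shRNA) and 3 an shRNA against HYOU1. The product of HYOU1 is a protein-folding chaperone in the lumen of the endoplasmic reticulum (ER). The sources used here do not give the hairpin sequences, the time after delivery, or whether the cells were 1 clone or a pool. Libraries are called control replicates 1, 2 and 3 and HYOU1 shRNA replicates 1, 2 and 3, and values given as a series follow that order. Levels are FPKM, fragments scaled to gene length in kilobases and to a scaled library total. The gene length is that of all annotated exons of a gene joined, not of the transcript in use. Levels of different genes therefore compare only roughly.

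Translation starts when eIF2, loaded with GTP and the initiator tRNA, joins the small ribosomal subunit with eIF1, eIF1A, eIF3 and eIF5, and eIF4E, eIF4G and eIF4A bring in the capped mRNA. After the large subunit joins, eEF1A delivers each aminoacyl-tRNA and eEF2 moves the ribosome along the codon track. When unfolded proteins accumulate in the ER, the kinase PERK phosphorylates eIF2, which then blocks its exchange factor eIF2B and lowers initiation. The mRNAs of many translation factors begin with a C followed by a run of pyrimidines, a 5′ terminal oligopyrimidine (TOP) start known for translational control by mTOR.

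The start of the transcript is shown for selected members, because several members share the TOP-like start and others lack it. The selection is not balanced. EIF2S3, EIF2S3B and EIF3K have a TOP-like start and negative log2 fold changes with HYOU1 shRNA, and are not shown. EIF6 and EIF1B lack such a start and have positive ones, and are not shown either. RefSeq promoter entries (GRCh38.p14) matched 54 of the 67 members. Each line gives the coding strand from 10 bases before to 15 bases after the RefSeq start, with the unbroken pyrimidine run at the start in capitals where it opens with C and has at least 4 more pyrimidines.
EIF4A2: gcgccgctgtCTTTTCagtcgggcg
EIF3D: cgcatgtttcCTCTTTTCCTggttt
EEF2: cgtcagcgttCTCTTCCgccgtcgt
EEF1A1: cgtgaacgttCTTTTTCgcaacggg
EIF2D: ccagccgggcCCTTTTCgcggccgg
EIF3M: gcccagttccCTTTTCCggtcggcg
EIF2A: cgagcggtttCTCTTTCCgggacaa
EIF1: ccgcccctctgccccagtcactgag
EIF4EBP2: gccttcgcccgcttccggtcgtcgt
EEF2K: gcccgcttctgctcaacctagacca
EIF5: ggcgttgttcagtcagagcgagaac
EIF4G2: tgtcggaagcacttccctaacttgc
The first 7 open with such a run and the last 5 do not. The RefSeq start can differ from the gene start in the deposited table, as it does for EIF4A2 and EIF4EBP2. By this definition 12 of the 54 members (22.2%) had a TOP-like start, against 4.04% of all 27305 RefSeq promoters and 5.58% of the 8754 promoters of tested genes.

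The libraries held 16893091 to 18233240 fragments. HYOU1 fell from 37.6, 58.2 and 59.5 FPKM in the controls to 2.35, 2.32 and 2.37 FPKM. Control replicate 1 stood apart: its log2 values had Pearson's r of 0.906 and 0.892 with control replicates 2 and 3 across genes, against 0.971 between those replicates. Mitochondrial fragments made up 4.96% to 7.59% of the control libraries and 3.39% to 3.84% of the HYOU1 shRNA libraries. None of 14 hepatocyte markers reached a mean of 1 FPKM, and 5 of them, ALB and TTR included, were listed at 0 in every library, so the hepatocyte identity in the label has no support from these genes. The 14 summed to 2.87 to 3.04 FPKM in the controls and 1.05 to 1.23 FPKM with HYOU1 shRNA. Of 6 biliary markers 5 reached 1 FPKM, with a summed level of 56.7 to 62.8 FPKM in the controls and 67.1 to 72.1 FPKM with HYOU1 shRNA. Of 7 fibroblast and stellate cell markers 4 reached it, with sums of 10.4 to 12.4 and 10.5 to 11.1 FPKM, and among these COL1A1 rose by 1.09 on the log2 scale (limma, adjusted p = 0.0159) while DCN fell, at -1.35 (adjusted p = 0.00708). The COL1A1 call was lost without control replicate 2 or any 1 of the HYOU1 shRNA libraries (adjusted p from 0.0539 to 0.0980), and the DCN call without HYOU1 shRNA replicate 1 or 3 (adjusted p = 0.0563 and 0.0571). No endothelial or immune marker reached it, with sums of 0.514 to 0.654 against 0.179 to 0.221 FPKM for 5 endothelial markers and 0.602 to 1.83 against 0.611 to 0.941 FPKM for 6 immune markers. Whether these differences have a part in any value below was not tested.

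Translation factor mRNAs covered a wide range of levels. Of the 67 members, 59 had a mean of at least 1 FPKM and were tested. Their means ran from 1.28 FPKM for EIF5A2 to 1551 FPKM for EEF2, with a median of 23.7 FPKM. Of them 11 reached 100 FPKM, 28 lay between 10 and 100 FPKM, and 20 lay below 10 FPKM. Members took 2.62%, 2.62% and 2.70% of all fragments in the control libraries and 3.01%, 3.06% and 3.00% in the HYOU1 shRNA libraries. The HYOU1 shRNA libraries were all higher, and this was also so as a share of non-mitochondrial fragments (2.83%, 2.77% and 2.84% against 3.11%, 3.18% and 3.11%). Without EEF2, the share of non-mitochondrial fragments was 2.45%, 2.18% and 2.24% against 2.33%, 2.40% and 2.27%, and the groups overlapped. In bulk RNA, fewer cells of a type and less RNA per cell cannot be told apart.

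**Figure D1:**
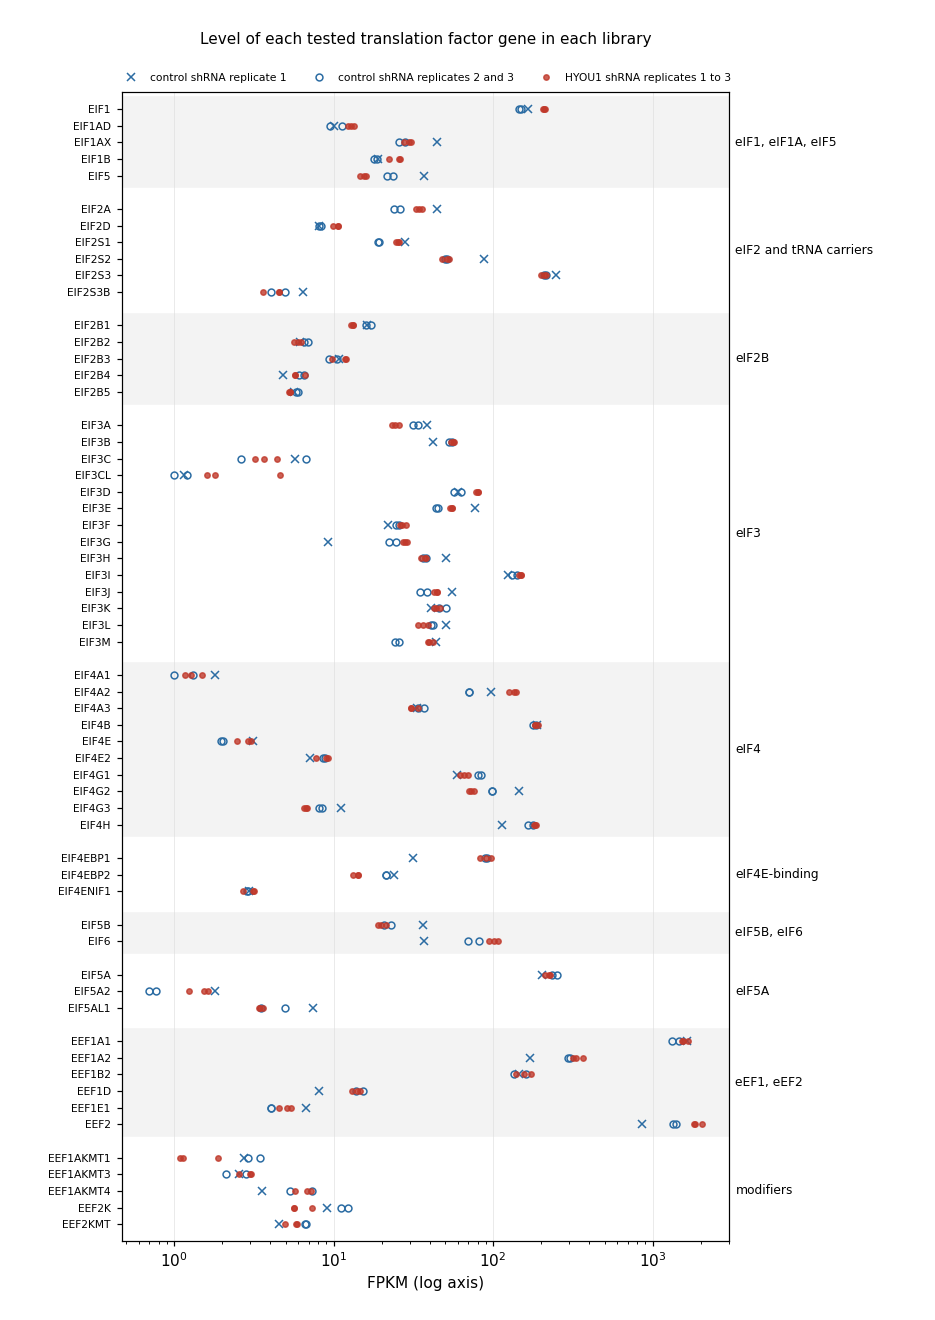
FPKM (log axis) of each of the 59 tested genes in each of the 6 libraries, grouped by role; crosses are control shRNA replicate 1, open circles control replicates 2 and 3, filled circles the 3 HYOU1 shRNA libraries. EEF2 and EEF1A1 are the top members in mean level, and control replicate 1 lies apart from the other controls for many genes, such as EIF3G and EIF4EBP1.

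With HYOU1 shRNA, 3 translation factor mRNAs rose and 4 fell past the threshold of adjusted p under 0.05 (limma, Benjamini-Hochberg over 12448 genes). EIF4A2, EIF1 and EIF3D rose, and EIF4EBP2, EEF2K, EIF3A and EEF1AKMT1 fell. These 7 are 11.9% of the 59 members, where 12.3% of all tested genes were called, with 6.6% higher and 5.66% lower. The share is near the background, and the median log2 fold change of 0.065 stood beside 0.035 for all genes. TPM scaling gave 4 higher and 3 lower, and quantile normalization gave 1 higher and 3 lower. Control and HYOU1 shRNA libraries were fully separated for 24 members (40.7%), beside 44.4% of all tested genes.

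Leaving out control replicate 1, an alternative planned for every library, raised the number of called members to 26, with 17 higher and 9 lower. That is 44.1% of members beside 44.3% of all tested genes, with 24.6% higher and 19.7% lower. A correction of each library for a trend with GC content gave 24 called members, 16 higher and 8 lower, or 40.7% beside 40.6% of all tested genes, with 20.4% higher and 20.2% lower. All 7 genes called with the 6 libraries were called in the same direction in both of these fits, and 24 genes were called in the same direction by both. Both fits reuse the same libraries, and the same overlaps over all tested genes are not given here. These counts therefore do not set the members apart from other genes. Without control replicate 1, 38 members (64.4%) had groups that did not overlap, beside 65.8% of all tested genes. Leaving out control replicate 2, or any 1 of the HYOU1 shRNA libraries, left no member called, and leaving out control replicate 3 left only EIF4EBP2. HYOU1 itself, which fell 20.8-fold, had an adjusted p of 0.00119 with all libraries and up to 0.0274 with 1 library left out. The share of all tested genes called in those fits is not given here. Calls lost in them, here and below, therefore cannot be told apart from a general loss of calls. In the 6-library fit 17 of the 59 members had an unadjusted limma p under 0.05, beside 3926 of the 12448 tested genes.

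**Figure D2:**
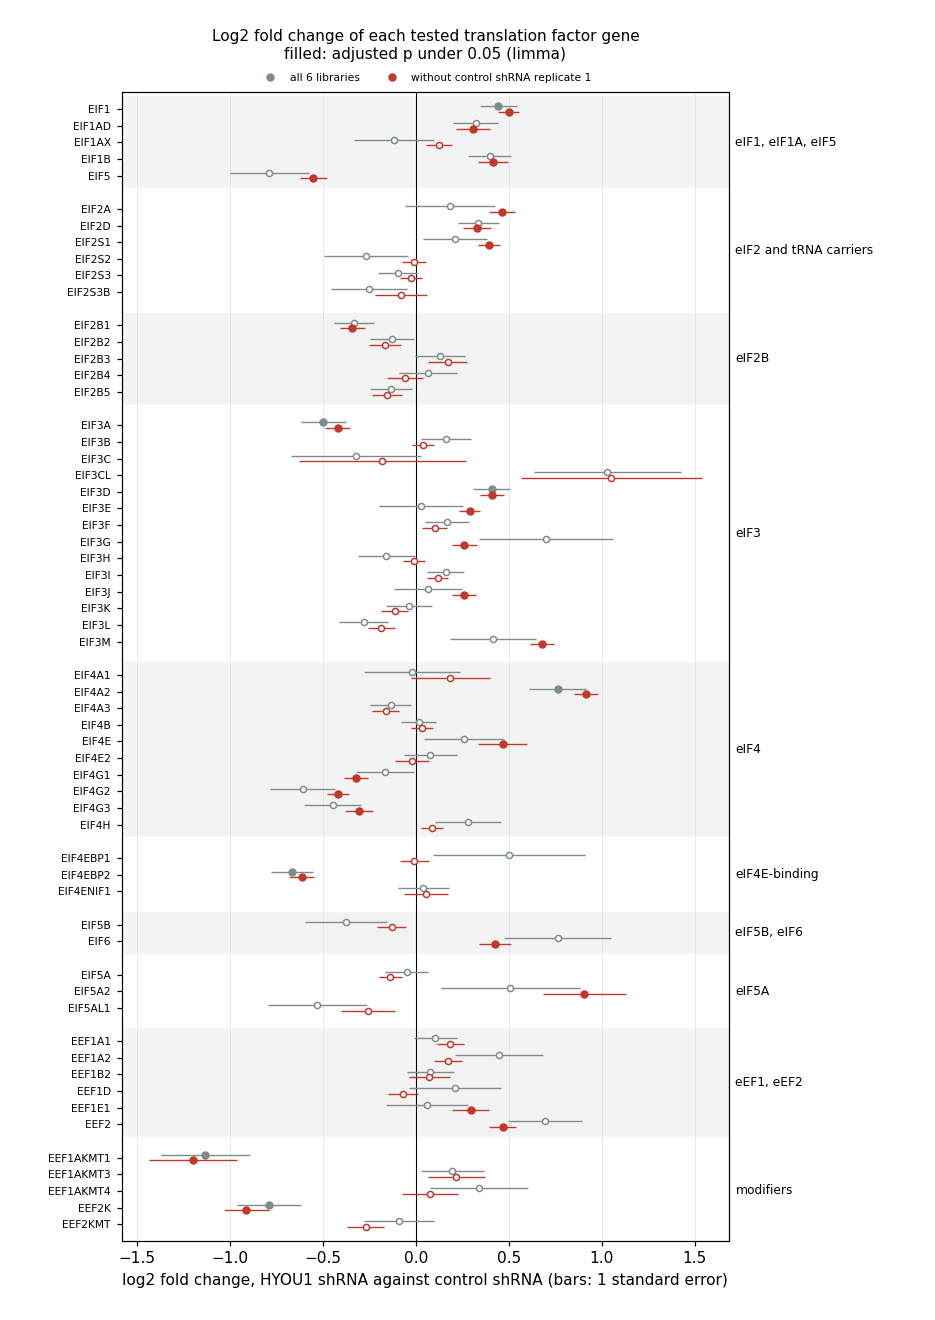
Log2 fold change of HYOU1 shRNA against control shRNA (x axis, bars 1 standard error) for the 59 tested genes by role; grey, all 6 libraries, red, without control shRNA replicate 1, filled where the limma adjusted p is under 0.05. The 7 filled grey points are also filled in red, and a further 19 genes are filled in red alone.

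The gap between control replicate 1 and the other controls followed GC content among the members. Over the 59 genes, its deviation from the mean of control replicates 2 and 3 correlated with the GC content of the longest transcript at Pearson's r of -0.87 and Spearman's rho of -0.83. These are descriptions across genes that share the same 3 libraries. All 11 members with GC content under 40% were higher in control replicate 1, with a median deviation of 0.72 (log2). Of the 11 members over 55%, none was higher, with a median deviation of -0.79. The most GC-rich tested member, EIF4EBP1, had the lowest deviation at -1.53, and the most AT-rich, EIF5A2, the highest at 1.197. Each value below is therefore given with and without control replicate 1 where it bears on the call.

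**Figure D3:**
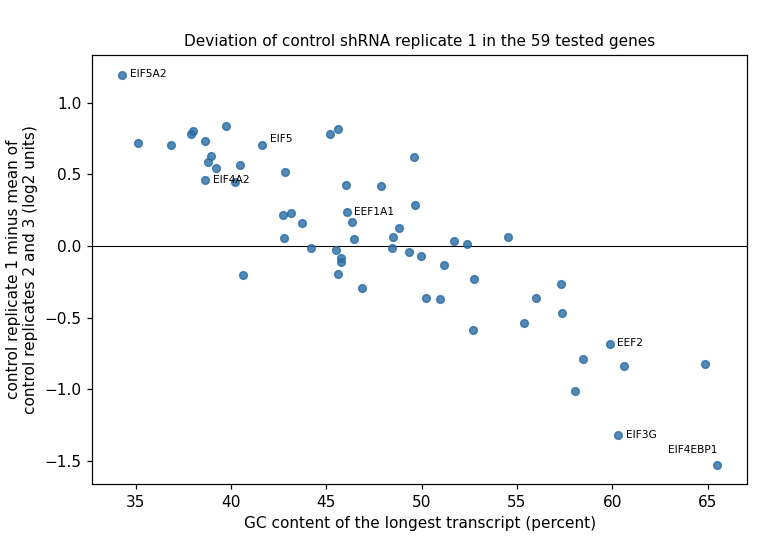
GC content of the longest transcript in percent (x axis) against the log2 level of control shRNA replicate 1 minus the mean of control replicates 2 and 3 (y axis), 1 point per tested gene. The points fall from 1.197 for EIF5A2 to -1.53 for EIF4EBP1, with 0 of the 11 genes over 55% GC above the line at 0.

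In start codon recognition, EIF1 rose and EIF5 was lower in every HYOU1 shRNA library. eIF1 keeps the scanning ribosome from starting at a poor site. EIF1 (GRCh38 chromosome 17, 41688885 to 41692668) was at 165, 149.9 and 145 FPKM in the controls and at 205, 212 and 209 FPKM with HYOU1 shRNA. The lowest HYOU1 shRNA library was above the highest control. EIF1 rose by 0.44 on the log2 scale (standard error 0.099, limma adjusted p = 0.0351) and by 0.50 without control replicate 1 (adjusted p = 0.000288). The call was lost without any 1 of the other 5 libraries (adjusted p from 0.0789 to 0.162).

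eIF5 is the activator of the eIF2 GTPase that commits the ribosome to a start codon. EIF5 was at 37.1, 23.7 and 21.7 FPKM in the controls and at 15.5, 16.0 and 14.7 FPKM with HYOU1 shRNA. The groups did not overlap, and control replicate 1 was the highest library. The log2 fold change was -0.79 (standard error 0.21, adjusted p = 0.0592) with all libraries, above the threshold, and -0.55 (adjusted p = 0.000608) without control replicate 1. EIF1B, a close paralog of EIF1, had a log2 fold change of 0.40 (adjusted p = 0.0709) and rose by 0.42 without control replicate 1 (adjusted p = 0.00417). EIF1AD, which shares the eIF1A domain, had 0.32 (adjusted p = 0.125) and rose by 0.31 in that fit (adjusted p = 0.0243). For EIF1AX, the X-linked copy of eIF1A, the log2 fold change was -0.12 (adjusted p = 0.735) with all libraries. Its sign changed without control replicate 1, to 0.12 (adjusted p = 0.185). In this group of 5 tested genes, 1 rose and none fell with all libraries (20% called, beside 12.3% of all tested genes). Without control replicate 1, 3 rose and 1 fell (80% called, beside 44.3% of all tested genes). EIF1B, EIF1AD and EIF1AX were chosen after their values were seen.

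None of the 6 tested genes for eIF2 and other carriers of the initiator tRNA passed the threshold with all libraries. Of all tested genes 12.3% did. Without control replicate 1, 3 rose and none fell, or 50% called beside 44.3% of all tested genes. EIF2S1 encodes the alpha subunit of eIF2, the one that PERK phosphorylates. It was at 28.04, 19.0 and 19.3 FPKM in the controls and 25.8, 25.2 and 24.6 FPKM with HYOU1 shRNA. Control replicate 1 was above all HYOU1 shRNA libraries, and the other controls were below them. Its log2 fold change was 0.21 (adjusted p = 0.441) and 0.39 without control replicate 1 (adjusted p = 0.00126).

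EIF2S3, the gamma subunit that binds GTP and the tRNA, was at 246, 214 and 209.9 FPKM and 216, 208 and 201 FPKM. The groups overlapped (log2 fold change -0.098, adjusted p = 0.557), and 0.024 after the GC correction. The FPKM of these subunits were not at 1 level, with EIF2S3 above 200 FPKM and EIF2S1 below 30 FPKM in every library. The gene lengths used were 3472 and 5651 bases, and their part in this gap was not tested. EIF2S3 shares 23.2% of its 50-base stretches with other genes, mostly the retrogene EIF2S3B, so its level is uncertain. EIF2D, which can deliver tRNA to the ribosome without GTP, was at 8.15, 8.11 and 8.35 FPKM in the controls and 10.6, 9.86 and 10.7 FPKM with HYOU1 shRNA, with no overlap. EIF2D had a log2 fold change of 0.34 (adjusted p = 0.0903) and 0.33 without control replicate 1 (adjusted p = 0.00794). EIF2A, a separate protein with tRNA-carrying activity and not the alpha subunit, had 0.18 (adjusted p = 0.632) and 0.46 (adjusted p = 0.00116), and was chosen after its values were seen.

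eIF2B reloads eIF2 with GTP and is the target of phosphorylated eIF2. None of its 5 subunit genes passed the threshold with all libraries, where 12.3% of all tested genes did. EIF2B1, the alpha subunit, was at 16.2, 16.0 and 17.2 FPKM in the controls and 13.3, 13.2 and 12.8 FPKM with HYOU1 shRNA, and the groups did not overlap. EIF2B1 had a log2 fold change of -0.33 (adjusted p = 0.0854) with all libraries, -0.34 (adjusted p = 0.00422) without control replicate 1, and -0.25 with the GC correction (adjusted p = 0.0562). EIF2B5, the catalytic epsilon subunit, was at 5.62, 5.83 and 6.0 FPKM and 5.33, 5.26 and 5.296 FPKM. The control libraries were all slightly higher, with a log2 fold change of -0.13 (adjusted p = 0.457). The ratio of summed eIF2B to summed eIF2 subunits was 0.121, 0.154 and 0.168 in the controls and 0.137, 0.151 and 0.151 with HYOU1 shRNA, and the groups overlapped.

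Within eIF3, the large scaffold on the small ribosomal subunit, EIF3D rose and EIF3A fell. eIF3d can itself bind the cap of some mRNAs. EIF3D (chromosome 22, 36510850 to 36529436) was at 60.5, 56.9 and 63.3 FPKM in the controls and 78.5, 80.0 and 81.0 FPKM with HYOU1 shRNA. The 3 HYOU1 shRNA libraries lay close together above all controls. EIF3D rose by 0.41 on the log2 scale (standard error 0.10, adjusted p = 0.0451), and by 0.41 without control replicate 1 (adjusted p = 0.00142). The call was lost without any 1 of the other 5 libraries (adjusted p from 0.0719 to 0.197).

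eIF3a is the largest core subunit. EIF3A (chromosome 10, 119033670 to 119080823) was at 38.3, 33.6 and 31.7 FPKM in the controls and 25.5, 23.3 and 24.2 FPKM with HYOU1 shRNA. All HYOU1 shRNA libraries were below all controls. EIF3A fell, with a log2 fold change of -0.50 (standard error 0.12, adjusted p = 0.0431), and -0.42 without control replicate 1 (adjusted p = 0.00147). Leaving out any 1 of the other 5 libraries moved its adjusted p to between 0.0620 and 0.184.

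The other eIF3 subunits were not called with all libraries. EIF3I, the most abundant subunit mRNA in every library, was at 124, 132 and 141 FPKM and 149, 146 and 149 FPKM, with a log2 fold change of 0.16 (adjusted p = 0.302). EIF3M was at 43.7, 25.8 and 24.3 FPKM and 39.2, 41.9 and 39.5 FPKM, so control replicate 1 was at the level of the HYOU1 shRNA libraries and the other controls were well below. EIF3M had a log2 fold change of 0.41 (adjusted p = 0.267) with all libraries and 0.68 (adjusted p = 0.000123) without control replicate 1. EIF3G, which contacts eIF4B, was at 9.28, 22.2 and 24.5 FPKM and 27.2, 27.9 and 28.8 FPKM. Here control replicate 1 was far below the other 5 libraries, and the log2 fold change of 0.70 (adjusted p = 0.233) became 0.26 (adjusted p = 0.0146) without it. EIF3E and EIF3J rose by 0.29 and 0.26 in that fit (adjusted p = 0.00384 and 0.0126), where the values with all libraries were 0.028 and 0.065 (adjusted p = 0.943 and 0.8303). In all, 5 of the 14 tested eIF3 genes rose and 1 fell without control replicate 1, or 42.9% called beside 44.3% of all tested genes. With all libraries 2 of the 14 were called, or 14.3% beside 12.3% of all tested genes. Over 12 subunits, leaving out EIF3C and its copy EIF3CL, the highest level was 13.4 times the lowest in control replicate 1 and 5.81 to 6.25 times in the other libraries. The gene length used was 1725 bases for EIF3I, the highest. It was 3486, 7428 and 7101 bases for EIF3G, EIF3M and EIF3A, each the lowest in at least 1 library. The part of gene length in this spread was not tested. EIF3M, EIF3G, EIF3E and EIF3J were chosen after their values were seen.

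EIF3C and EIF3CL are near-identical copies on the same chromosome: 98.7% of the 50-base stretches of EIF3CL also occur in EIF3C. EIF3CL was at 1.16, 1.001 and 1.21 FPKM in the controls and 4.61, 1.81 and 1.61 FPKM with HYOU1 shRNA, and HYOU1 shRNA replicate 1 was far above the other libraries. Its log2 fold change of 1.03 had a standard error of 0.39 (adjusted p = 0.133). The sum of both copies was 6.85, 3.65 and 7.94 FPKM in the controls and 7.80, 6.23 and 5.25 FPKM with HYOU1 shRNA. The sums overlapped, and the placing of reads between the copies is uncertain.

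Among the 10 tested eIF4 genes, EIF4A2 rose and no other gene passed the threshold with all libraries. That is 10% called, beside 12.3% of all tested genes. eIF4A2 is a paralog of the helicase eIF4A1 and unwinds mRNA ahead of the ribosome. EIF4A2 (chromosome 3, 186783205 to 186789900) was at 97.3, 71.0 and 70.4 FPKM in the controls and 135, 140.0 and 126 FPKM with HYOU1 shRNA. Every HYOU1 shRNA library was above every control, and control replicate 1 was the highest control. EIF4A2 rose by 0.76 on the log2 scale (standard error 0.15, adjusted p = 0.0283), with means going from 79.6 ± 15.4 to 134 ± 6.98 FPKM (SD, n = 3 each). It rose by 0.92 without control replicate 1 (adjusted p = 3.81e-05), and the call was lost without any 1 of the other libraries (adjusted p from 0.06201 to 0.133). Small nucleolar RNA genes and opposite-strand genes cover 10.5% and 7.44% of its exons, and the sources used here do not say whether counting used strand.

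EIF4A1 is usually an abundant mRNA, and its values here are uncertain. It was at 1.81, 1.31 and 0.996 FPKM in the controls and 1.503, 1.28 and 1.17 FPKM with HYOU1 shRNA. All of its 50-base stretches also occur in other annotated genes, 91.7% of them in the overlapping read-through gene AC016876.2, which was listed at 0 in 5 libraries and at 0.0117 FPKM in control replicate 2. The sources used here do not say how fragments that match both genes were counted. No direction is drawn for EIF4A1, whose log2 fold change was -0.021 with all libraries (adjusted p = 0.964) and 0.19 without control replicate 1.

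The cap-binding protein and its scaffolds gave values that turned on control replicate 1. EIF4E was at 3.13, 2.02 and 1.96 FPKM in the controls and 2.89, 3.03 and 2.49 FPKM with HYOU1 shRNA. EIF4E had a log2 fold change of 0.26 (adjusted p = 0.449) with all libraries and 0.47 (adjusted p = 0.02101) without control replicate 1, the highest of the 6 libraries. EIF4G1, the main scaffold, was at 59.5, 84.1 and 80.7 FPKM in the controls and 66.2, 62.1 and 69.4 FPKM with HYOU1 shRNA. Control replicate 1 was below every HYOU1 shRNA library and the other controls were above them. The log2 fold change was -0.17 (adjusted p = 0.503) and, without control replicate 1, -0.32 (adjusted p = 0.00501). EIF4G2, a scaffold that lacks the eIF4E site, was at 145, 98.2 and 98.2 FPKM and 76.4, 72.9 and 70.8 FPKM, with all HYOU1 shRNA libraries below all controls. EIF4G2 had a log2 fold change of -0.61 (adjusted p = 0.0687) and -0.42 without control replicate 1 (adjusted p = 0.000841). EIF4G3, another scaffold gene, had -0.45 (adjusted p = 0.102) and -0.31 (adjusted p = 0.0122). EIF4B, which stimulates the helicase, was at 188, 177 and 187 FPKM and 192, 182 and 184 FPKM, and the groups overlapped (log2 fold change 0.015, adjusted p = 0.924). EIF4B shares 30.6% of its 50-base stretches with other genes, mostly EIF4BP6, so its level is uncertain. Of the 10 tested eIF4 genes, 2 rose and 3 fell without control replicate 1, or 50% called beside 44.3% of all tested genes. EIF4G2 and EIF4G3 were chosen after their values were seen.

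The eIF4E-binding proteins hold eIF4E away from eIF4G until mTOR phosphorylates them. EIF4EBP2 (chromosome 10, 70404379 to 70428618) fell from 23.8, 21.4 and 21.2 FPKM in the controls to 14.2, 14.2 and 13.2 FPKM with HYOU1 shRNA. The groups were well apart and control replicate 1 lay near the other controls. On the log2 scale its fold change was -0.67 (standard error 0.11, adjusted p = 0.01702), a change of means from 22.1 ± 1.42 to 13.9 ± 0.608 FPKM (SD, n = 3 each). It was -0.61 without control replicate 1 (adjusted p = 0.000253). The call was also kept without control replicate 3 and lost without control replicate 2 or any 1 of the HYOU1 shRNA libraries (adjusted p from 0.0647 to 0.112).

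EIF4EBP1, the best known of these inhibitors, was at 31.4, 89.1 and 92.1 FPKM in the controls and 82.8, 97.5 and 90.6 FPKM with HYOU1 shRNA. Only control replicate 1 was low. EIF4EBP1 had a log2 fold change of 0.50 (standard error 0.41, adjusted p = 0.438), and -0.0075 without that library. The ratio of EIF4EBP1 to EIF4EBP2 was 1.32, 4.17 and 4.34 in the controls and 5.83, 6.85 and 6.87 with HYOU1 shRNA. The ratio was higher in every HYOU1 shRNA library, by 1.17 on the log2 scale and by 0.61 without control replicate 1. An exact two-sided permutation test gave p = 0.1, the smallest that 3 against 3 libraries can give, and 0.3 after adjustment over 9 ratios. Summed over the 3 binding protein genes, the ratio to EIF4E was 17.7, 54.7 and 57.7 in the controls and 33.6, 36.9 and 41.7 with HYOU1 shRNA, and the groups overlapped. The size of this ratio also turns on the gene lengths used, 14067 bases for EIF4E.

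**Figure D4:**
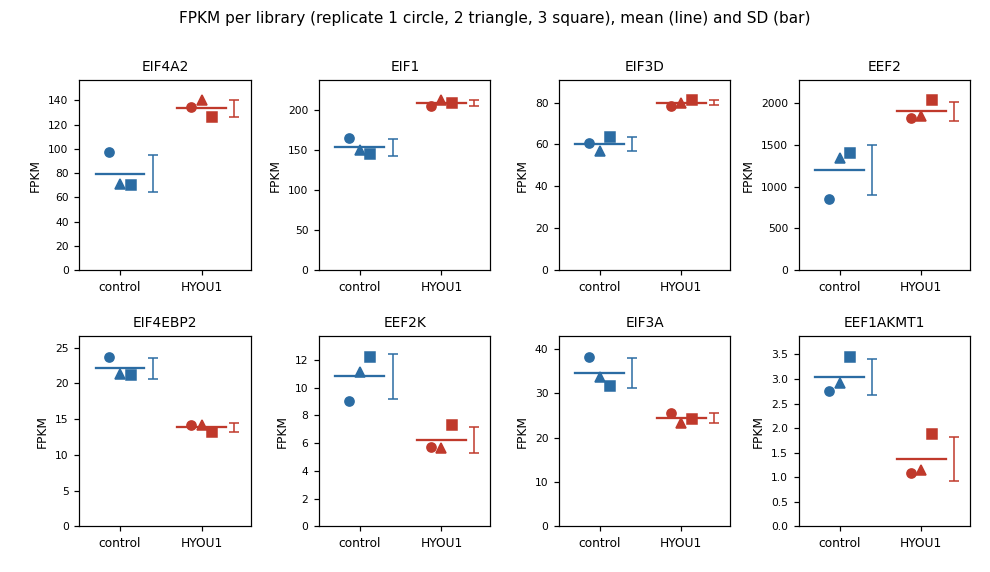
FPKM per library of the 7 called genes and of EEF2 (y axes from 0), control shRNA in blue and HYOU1 shRNA in red, with the mean as a line and the SD as a bar (n = 3 each). In all 8 panels the points of the groups do not overlap.

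Of the late initiation factors, eIF6 keeps free large subunits from pairing too early. EIF6 was at 37.1, 69.3 and 81.3 FPKM in the controls and 93.7, 108 and 102 FPKM with HYOU1 shRNA. All HYOU1 shRNA libraries were above all controls, and control replicate 1 was far below the other controls. EIF6 had a log2 fold change of 0.76 (standard error 0.29, adjusted p = 0.127) and 0.43 without control replicate 1 (adjusted p = 0.00517). EIF6 shares 19.0% of its 50-base stretches with the overlapping gene AL121753.1. EIF5B, the GTPase that joins the subunits, had a log2 fold change of -0.37 (adjusted p = 0.287) and -0.13 without control replicate 1 (adjusted p = 0.205). EIF5B was chosen after its values were seen.

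eIF5A carries the modified residue hypusine and helps the ribosome through stalling sequences. EIF5A was at 203, 235 and 251 FPKM in the controls and 212, 223 and 228 FPKM with HYOU1 shRNA. The groups overlapped, with a log2 fold change of -0.05 (adjusted p = 0.7897). EIF5A2, a paralog known from amplified tumour regions, was at 1.81, 0.773 and 0.697 FPKM and 1.64, 1.55 and 1.24 FPKM. Its highest library was control replicate 1, and the log2 fold change was 0.51 (adjusted p = 0.387) with all libraries and 0.91 (adjusted p = 0.0115) without it. EIF5AL1, an intronless copy of EIF5A, was at 7.45, 3.52 and 4.99 FPKM and 3.39, 3.63 and 3.45 FPKM (log2 fold change -0.53, adjusted p = 0.225). EIF5A and EIF5AL1 share sequence, with 30.1% of the 50-base stretches of EIF5A found in EIF5AL1, so their split is uncertain.

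The elongation factors held the most abundant mRNAs of the set. EEF2, EEF1A1 and EEF1A2 together took 54.4%, 58.1% and 59.2% of the members' fragments in the controls and 61.9%, 62.7% and 63.0% with HYOU1 shRNA. EEF2 (chromosome 19, 3976056 to 3985469) was at 856, 1340.0 and 1406 FPKM in the controls and 1828, 1841 and 2034 FPKM with HYOU1 shRNA. All HYOU1 shRNA libraries were above all controls, with control replicate 1 the lowest. EEF2 had a log2 fold change of 0.70 (standard error 0.20, adjusted p = 0.0701), which missed the threshold, and 0.47 (adjusted p = 0.00131) without control replicate 1.

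EEF1A1, the main carrier of aminoacyl-tRNA, was at 1647, 1334 and 1462 FPKM in the controls and 1564, 1679.9 and 1523 FPKM with HYOU1 shRNA, and the groups overlapped. Its log2 fold change was 0.11 (adjusted p = 0.551) and 0.18 without control replicate 1 (adjusted p = 0.0724). EEF1A1 shares 29.3% of its 50-base stretches with 28 other genes, mostly the processed pseudogene EEF1A1P5. That pseudogene was listed at 148, 129 and 146 FPKM and 234, 267 and 207 FPKM and rose by 0.74 on the log2 scale (adjusted p = 0.0201), a call lost without control replicate 2 or any 1 of the HYOU1 shRNA libraries (adjusted p from 0.0742 to 0.107). The sources used here do not say how reads were placed between these genes.

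EEF1A2, the paralog normally found in muscle and neurons, was at 169, 304 and 296 FPKM in the controls and 319, 329.8 and 368 FPKM with HYOU1 shRNA. Control replicate 1 was far below the other libraries, and the log2 fold change of 0.45 (adjusted p = 0.243) became 0.17 without it (adjusted p = 0.0896) and -0.018 after the GC correction. The ratio of EEF1A2 to EEF1A1 was 0.103, 0.228 and 0.203 in the controls and 0.204, 0.196 and 0.242 with HYOU1 shRNA, with overlap. EEF1E1, a scaffold protein of the tRNA synthetase complex, had 0.06 (adjusted p = 0.869) and 0.29 without control replicate 1 (adjusted p = 0.0455), and was chosen after its values were seen. With all libraries none of the 6 tested eEF1 and eEF2 genes was called, beside 12.3% of all tested genes. Without control replicate 1, 2 rose and none fell, or 33.3% called beside 44.3% of all tested genes.

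Of the 5 tested enzymes that modify elongation factors, EEF2K and EEF1AKMT1 fell, or 40% called beside 12.3% of all tested genes. Without control replicate 1 the share was again 40%, beside 44.3% of all tested genes. eEF2 kinase phosphorylates eEF2 and thereby slows elongation. EEF2K (chromosome 16, 22206282 to 22288732) was at 9.06, 11.2 and 12.2 FPKM in the controls and 5.68, 5.66 and 7.28 FPKM with HYOU1 shRNA. All HYOU1 shRNA libraries were below all controls. EEF2K fell, with a log2 fold change of -0.79 (standard error 0.17, adjusted p = 0.0336), a change of means from 10.8 ± 1.62 to 6.21 ± 0.931 FPKM (SD, n = 3 each). It was -0.91 without control replicate 1 (adjusted p = 0.000713). Without any 1 of the other libraries the adjusted p was 0.0741 to 0.147, above the threshold.

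EEF1AKMT1, a lysine methyltransferase of eEF1A, had the largest called change. Its gene (chromosome 13, 20728731 to 20773958) was at 2.76, 2.91 and 3.45 FPKM in the controls and 1.08, 1.14 and 1.88 FPKM with HYOU1 shRNA. The groups did not overlap, although HYOU1 shRNA replicate 3 was above the other HYOU1 shRNA libraries. On the log2 scale the change was -1.13 (standard error 0.24, adjusted p = 0.0321) and -1.20 without control replicate 1 (adjusted p = 0.00473). Its call too was lost without any 1 of the other 5 libraries (adjusted p from 0.0571 to 0.139). The other 3 tested enzymes were not called in either fit, EEF2KMT, which trimethylates eEF2, among them. EEF2KMT had a log2 fold change of -0.092 (adjusted p = 0.761) and -0.27 without control replicate 1 (adjusted p = 0.0579). EEF2KMT was chosen after its values were seen.

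The ratio of EEF2K to EEF2, the kinase to its substrate at the mRNA level, was 0.0106, 0.00833 and 0.00870 in the controls and 0.00311, 0.00308 and 0.00358 with HYOU1 shRNA. The ratio was lower in every HYOU1 shRNA library, by a log2 difference of -1.495, or 2.82-fold. The exact two-sided permutation test gave p = 0.1, the smallest possible, and 0.3 after adjustment over the 9 ratios. Without control replicate 1 the difference was -1.39. The ratio of EIF4A2 to EIF4A1 was higher by 0.78 without overlap (p = 0.1, adjusted p = 0.3, the same exact test), with the reservation given for EIF4A1. The groups overlapped in the other 6 ratios apart from that of EIF4EBP1 to EIF4EBP2.

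**Figure D5:**
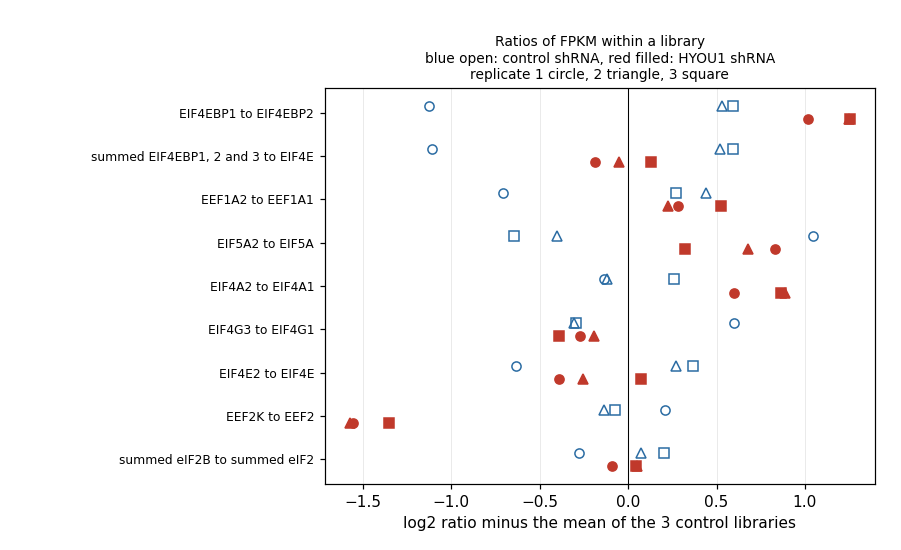
Log2 ratio of FPKM within each library minus the mean of the 3 control libraries (x axis) for the 9 ratios, control shRNA in open blue and HYOU1 shRNA in filled red, with a symbol for each replicate number. EEF2K to EEF2, EIF4A2 to EIF4A1 and EIF4EBP1 to EIF4EBP2 are the 3 ratios in which the groups do not overlap.

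The starts of transcription were set beside the changes, a grouping chosen after the values were seen. Of the 12 tested members with a TOP-like start, EIF4A2 and EIF3D rose and none fell, with a median log2 fold change of 0.18 and 9 of 12 above 0. Of the 34 other tested members with a RefSeq start, 1 rose and 2 fell, with a median of 0.05. Without control replicate 1, 6 rose and none fell among the 12, with a median of 0.26, while 9 rose and 7 fell among the 34 (26.5% and 20.6%). In that fit 33.2% of all tested genes with a TOP-like start rose and 16.2% fell, and 25.6% and 21.1% of those without one. Over all tested genes with a promoter entry, 39 of 488 with a TOP-like start rose and 15 fell, with a median of 0.13, against 533 and 500 of 8266 without one, with a median of 0.027. Leaving out ribosomal protein genes and the members, 32 of 433 genes with a TOP-like start rose and 15 fell, with a median of 0.080. The 12 members are not independent samples, and no test was made of this difference.

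Other motifs were counted on both strands in the 250 bases before the RefSeq start, and a match is a description of letters only. The E-box CACGTG, the core of sites bound by MYC and related factors, was in 14 of 54 members (25.9%), against 6.49% of all promoters and 9.20% of those of tested genes. EEF1AKMT4 and its read-through gene EEF1AKMT4-ECE2 have the same window, which holds this E-box and CCAAT. Both of these genes are counted among the members with each motif. The windows of EEF1E1 and its read-through gene EEF1E1-BLOC1S5 overlap, and both genes are counted among the members with CCAAT. Of the 12 tested members with this E-box, none rose and 1 fell with all libraries, beside 5.59% and 6.58% of the 805 tested genes that hold it. Without control replicate 1, 3 of the 12 rose and 2 fell, beside 25.5% and 22.5% of those genes. CCAAT was in 21 members (38.9%), against 33.04% of all promoters. The composite element TGATGNAA, known from ATF4 targets, was in none of the 54, in 3.19% of all promoters and in 1.18% of those of tested genes. The heat shock element was in 1 member, EIF5B, against 1.19% of all promoters and 0.571% of those of tested genes. The ER stress element, CCAAT and CCACG separated by a fixed spacer, was in the promoter of 1 member, EIF2A. This element was in 0.0806% of all promoters and 0.126% of those of tested genes. It is shown in capitals in the 250 bases before the RefSeq start of EIF2A (chr3:150546537-150546786, plus strand, GRCh38.p14), where it lies 77 to 59 bases before the start.
EIF2A upstream: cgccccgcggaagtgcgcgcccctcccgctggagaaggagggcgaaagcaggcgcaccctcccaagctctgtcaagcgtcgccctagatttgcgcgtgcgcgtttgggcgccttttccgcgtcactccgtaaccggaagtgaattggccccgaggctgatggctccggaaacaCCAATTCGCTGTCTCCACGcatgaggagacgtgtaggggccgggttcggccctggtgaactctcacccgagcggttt
Its opposite-strand neighbour SERP1, an ER stress-associated protein of the translocon, was at 26.1, 24.9 and 27.7 FPKM in the controls and 48.8, 48.6 and 47.1 FPKM with HYOU1 shRNA. SERP1 rose by 0.88 on the log2 scale (adjusted p = 0.00771), a call lost without any 1 of the HYOU1 shRNA libraries (adjusted p from 0.0670 to 0.0717). The exons of SERP1 overlap 3.70% of those of EIF2A, and reads in that overlap cannot be assigned without strand.

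Other genes of translation control were taken from 7 lists of factors by function, chosen with earlier results of these data known. Of 58 tested genes, 1 rose and 2 fell, or 5.17% beside the 12.3% of all tested genes. The fit without control replicate 1 gave 9 higher and 11 lower, and the GC-corrected fit gave 5 higher and 8 lower. These are 34.5% and 22.4% of the 58 genes, beside 44.3% and 40.6% of all tested genes. PAIP1, a poly(A)-binding protein partner that stimulates initiation, rose from 38.2, 32.1 and 31.5 FPKM in the controls to 55.4, 53.1 and 53.3 FPKM (log2 fold change 0.67, adjusted p = 0.0193). PDCD4, an inhibitor of eIF4A, fell from 39.9, 36.5 and 33.4 FPKM to 26.9, 25.6 and 23.4 FPKM (log2 fold change -0.53, adjusted p = 0.0385), and its adjusted p after the GC correction was 0.0698. CDC123, an assembly factor of eIF2, fell from 28.95, 22.8 and 24.8 FPKM to 16.1, 15.4 and 16.8 FPKM (log2 fold change -0.65, adjusted p = 0.0266). In these 3 genes all HYOU1 shRNA libraries lay on 1 side of all controls. Leaving out any 1 of the libraries other than control replicate 1 ended each of the 3 calls, with adjusted p from 0.0501 to 0.114 for PAIP1, from 0.0557 to 0.180 for PDCD4 and from 0.0573 to 0.134 for CDC123.

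None of the 11 tested genes for the eIF2 kinases and the eIF2 phosphatase passed the threshold with all libraries. Of all tested genes 12.3% did. Without control replicate 1, 4 rose and 1 fell, where 44.3% of all tested genes were called. PPP1R15A, which directs the phosphatase to eIF2 after stress, was at 3.96, 7.66 and 7.53 FPKM in the controls and 11.5, 10.8 and 12.7 FPKM with HYOU1 shRNA. The groups did not overlap (log2 fold change 0.92, adjusted p = 0.0714), and it rose by 0.61 without control replicate 1 (adjusted p = 0.000888). EIF2AK3, which encodes PERK, was at 5.93, 4.05 and 4.03 FPKM and 4.8, 4.698 and 4.997 FPKM. Control replicate 1 was the highest library, and the log2 fold change was 0.072 (adjusted p = 0.808) and 0.25 without it (adjusted p = 0.04901).

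In the list of 14 mTORC1, S6 kinase and MNK genes, PDCD4 alone was called with all libraries, and 1 gene rose and 5 fell without control replicate 1. Of all tested genes 12.3% and 44.3% were called in these 2 fits. RPTOR, the substrate-binding subunit of mTORC1, was at 3.61, 5.55 and 5.99 FPKM in the controls and 3.45, 3.08 and 3.19 FPKM with HYOU1 shRNA, without overlap. RPTOR had a log2 fold change of -0.59 (adjusted p = 0.114) and -0.81 without control replicate 1 (adjusted p = 0.000465). MKNK2, a kinase of eIF4E, was at 10.9, 24.7 and 24.3 FPKM and 34.7, 35.1 and 38.8 FPKM, also without overlap, with 0.95 (adjusted p = 0.0999) and 0.56 (adjusted p = 0.000458). Without control replicate 1, 2 of 4 poly(A)-binding genes rose, 3 of 8 other initiation factors fell, 1 of 5 termination and recycling factors and 1 of 7 hypusine and diphthamide enzymes rose, and 2 of 9 mitochondrial translation factors fell. In that fit 44.3% of all tested genes were called. PPP1R15A, EIF2AK3, RPTOR and MKNK2 were chosen after their values were seen.

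The 8 members that were not tested were EEF1G, EIF4E1B, 2 read-through genes, EIF4E3, EEF1AKMT2, EIF4EBP3 and EIF1AY, whose values are not reported. EEF1G, the gamma subunit of the eEF1B exchange complex and usually abundant, was listed at 0 in every library. Its exons are overlapped by the read-through gene AP002990.1 over 99.9% of their length, and all of its 50-base stretches occur in other genes. AP002990.1 was listed at 0.271, 0.668 and 0.4503 FPKM in the controls and 0.742, 0.555 and 0.7699 FPKM with HYOU1 shRNA. The zeros of EEF1G therefore say nothing of its expression. EIF4E1B, an oocyte form of eIF4E, and the read-through genes EEF1AKMT4-ECE2 and EEF1E1-BLOC1S5 were also listed at 0. EIF4E3 lay between 0.441 and 0.886 FPKM, EEF1AKMT2 between 0.446 and 1.39 FPKM, and EIF4EBP3 between 0 and 0.254 FPKM.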

How the data were processed

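Per the labels' protocols, mRNA was selected on oligo(dT) beads, fragmented and primed with random hexamers. The authors deposited FPKM values for 58735 genes; the sources used here name no aligner or counting tool and no use of strand. Gene identifiers, coordinates and lengths matched GENCODE 29 (GRCh38). FPKM times gene length came in whole multiples of 1 step per library within 0.01 fragments, which gave the fragment totals. A count of 3 fragments was worth 0.160 to 0.176 FPKM for a gene of 1 kb, counting error only.

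Values were analysed as log2(FPKM + 0.1), which understates changes of low genes, for the 12448 genes whose mean reached 1 FPKM. limma 3.58.1 in R 4.3.3 (variance trend, robust priors) compared the 3 HYOU1 shRNA with the 3 control libraries, and every adjusted p without another test named is its Benjamini-Hochberg value over these genes. The labels do not say that replicates were separate cultures, so the p-values reflect only differences among these libraries, whose spread may be technical. The GC correction removed a lowess trend (span 0.3) per library. Ratios were compared by exact permutation in Python 3.11.15. The members and lists were chosen with earlier results of these data known. Values in every library were to be given for called members, for the highest and the most changed member of each role, and for 13 factors whatever their result; other genes are said to be chosen after their values were seen. Alternatives were other pseudocounts, filters, scalings, the replicate block, GC correction, voom on recovered fragments and leaving out each library.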

Additional observations from a re-analysis of the deposited data

How the results depend on the processing

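The number of called translation factor genes was 7, and it stayed within 1.5 times of that with pseudocounts of 1 and 0.01, filters at means of 0.1 and 5 FPKM, median-of-ratios and TPM scaling, coding genes alone, and voom. It was 1 with no filter, 4 with quantile normalization, 4 with no variance trend, 24 after the GC correction and 29 after the GC correction without control replicate 1. Leaving out each library in turn gave 0 to 26. For the role groups with a called gene, the count of 5 became 10 when control replicate 1 was left out and 9 after the GC correction. For eIF3, 2 called genes became 6 and 5, and for the other genes of the pathway 3 became 20 and 13. The cause was not tested. With the replicate number as a block 4 of the 59 members were called (6.78%, beside 7.55% of all tested genes), and EIF1, EIF3D and EIF3A were above the threshold (adjusted p = 0.0784, 0.0959 and 0.0753); 23 were called with the block and the GC correction. Deviations of same-numbered libraries correlated at 0.125, -0.0933 and 0.170, and not every library correlated best with its own number, so the numbers were not taken to pair the samples.

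Among 27 named members, 15 of 561 values under these settings changed sign, none of them for a called gene. EEF1A2 was -0.018 and EIF2S3 0.024 after the GC correction, with or without the block. EIF4A1 was 0.016 with quantile normalization, 0.015 with TPM scaling, 0.20 after the GC correction without control replicate 1, and, leaving out each library, between -0.21 and 0.19, with 0.054 without HYOU1 shRNA replicate 3. EIF4B was -0.13 with quantile normalization and, leaving out each library, between -0.012 and 0.031. EIF4EBP1 was -0.14 after the GC correction without control replicate 1 and, leaving out each library, between -0.0075 and 0.77. EIF5A was 0.017 without control replicate 3. Leaving out each library, log2 ratio differences ran from -0.59 to 0.26 for the summed binding proteins to EIF4E, from -0.011 to 0.56 for EEF1A2 to EEF1A1, from -0.44 to 0.013 for EIF4G3 to EIF4G1 and from -0.14 to 0.10 for eIF2B to eIF2. With 3 libraries per group, no ratio could pass a threshold of 0.05.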
